A study of Mus musculus with 57 samples.

Results

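The mitochondrial ribosomal protein genes are the nuclear genes whose products, together with ribosomal RNA made inside the mitochondrion, form the ribosome of that organelle. The genes were taken by symbol, as every *Mrpl* (large subunit) or *Mrps* (small subunit) symbol followed by a number that is present in both count tables, without pseudogenes. This gave 78 genes, 49 of the large and 29 of the small subunit, out of 25416 genes shared by the tables. The mitochondrial ribosome translates the mRNAs of mitochondrial DNA, all of which encode core subunits of the respiratory chain and of ATP synthase. Its own proteins are made in the cytosol and imported. Some descend from proteins of the bacterial ribosome and others exist only in mitochondria. Cardiomyocytes hold many mitochondria, and doxorubicin (Doxo), an anthracycline used against cancer, is known to damage the heart.

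Heart RNA of wild-type male C57BL6/J mice was sequenced in an acute and a chronic toxicity study, each with vehicle-treated (Ctrl), Doxo and Doxo-NMN mice, to ask whether nicotinamide mononucleotide (NMN), a precursor of NAD+, changes the response of the heart to Doxo. In the acute study, mice obtained at 9 weeks of age received saline (14 hearts), 1 intraperitoneal injection of 20 mg/kg Doxo (13 hearts), or the same injection with 180 mg/kg/day of intraperitoneal NMN started 5 days earlier (13 hearts), and hearts were taken on day 5. In the chronic study, mice of 14 to 16 weeks of age received vehicle (5 hearts), 5 injections of 4 mg/kg Doxo, 20 mg/kg in all (6 hearts), or these injections and, from 5 days before, NMN at 500 mg/kg/day given with the drinking water (6 hearts), and hearts were taken on day 60. None of the groups analysed here received NMN without Doxo. The labels give each heart as a separate sample, and p-values measure the spread between these hearts.

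The acute libraries held 32409622 to 52102850 counts each and the chronic ones 17769886 to 23862287. The lower limit of detection was taken as 3 counts, at most 0.0926 CPM (acute) and 0.169 CPM (chronic), which covers counting error only. Low acute counts were mostly even, so acute counts may not each stand for a separate read. Levels are given as CPM, counts scaled to the normalized size of the library, and can be compared only within a study. Ventricular cardiomyocyte markers were high in all hearts, with summed levels of at least 30120 CPM. The atrial myosin light chain gene *Myl4* was above 100 CPM in 8 of 14 Ctrl, 5 of 13 Doxo and 4 of 13 Doxo-NMN hearts and in none of the chronic hearts. In the library labelled Doxo replicate 6 the summed red blood cell markers were 338 CPM, against 1.19 to 3.85 CPM in the other 12 Doxo hearts and 437 to 4311 CPM in Ctrl hearts, and the main results of the members are given with and without it. The summed neutrophil markers were 0.57 to 3.88 CPM in acute Ctrl, 1.40 to 255 CPM in Doxo and 2.85 to 26.8 CPM in Doxo-NMN hearts. In whole hearts, fewer cells of a type and less RNA per cell cannot be told apart.

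The mitochondrial ribosomal protein genes were mostly lower after acute Doxo. Averaged over the members, the mean log2 CPM per heart was lowest 4.91, median 5.15 and highest 5.32 in Ctrl hearts, and lowest 4.56, median 4.93 and highest 5.25 in Doxo hearts. In Doxo-NMN hearts it was lowest 4.78, median 5.18 and highest 5.27. The groups overlapped, and the highest Doxo heart was replicate 6. The Ctrl mean was 5.14 ± 0.13 (SD, n = 14), the Doxo mean 4.90 ± 0.19 (n = 13) and the Doxo-NMN mean 5.12 ± 0.16 (n = 13). Hearts with *Myl4* above 100 CPM had lower averages in each group. Below this limit the average was 5.24 ± 0.055 (n = 6) for Ctrl, 4.99 ± 0.13 (n = 8) for Doxo and 5.17 ± 0.15 (n = 9) for Doxo-NMN. In hearts above the limit it was 5.06 ± 0.11 (n = 8), 4.76 ± 0.18 (n = 5) and 5.002 ± 0.13 (n = 4). The order of the 3 groups was the same on both sides of the limit.

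**Figure D1:**
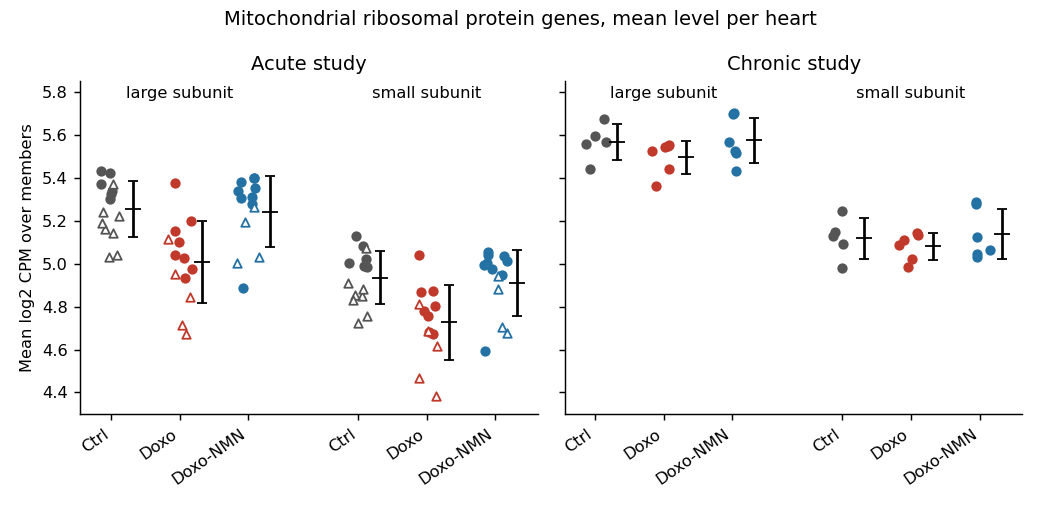
Mean log2 CPM over the large subunit members and over the small subunit members in each heart (vertical axis), by group, in the acute (left) and chronic (right) study. Each point is 1 heart, open triangles are hearts with Myl4 above 100 CPM, and bars give the mean and SD; in the acute study the Doxo mean lies below the Ctrl and Doxo-NMN means for both subunits, with Doxo replicate 6 as the highest Doxo heart, whereas the chronic groups overlap.

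Of the 77 members that passed the filter on low counts, 44 were lower and 10 were higher in acute Doxo vs. Ctrl hearts at an adjusted p-value under 0.05 (edgeR's quasi-likelihood test, Benjamini-Hochberg adjustment over 14240 genes). That is 57.1% lower and 13% higher, where 33.3% of all tested genes were lower and 34.8% higher (68.1% in either direction). The changes were small for most members. With a fold change of at least 1.5 as well, 6 members were lower and 1 was higher, against 15.4% and 14.7% of all tested genes (30.1% in either direction). The median log2 fold change of the members was -0.24, with an interquartile range from -0.44 to -0.014, and that of all tested genes was -0.0016. In each comparison the normalization places the bulk of genes near 0. The median of all genes is thus largely set by it, and the shift of the members is relative to it. Without Doxo replicate 6, 55 members passed (71.4%, against 70% of all tested genes) and the median was -0.28. Within the hearts below 100 CPM of *Myl4* 51 members passed (66.2%, against 54.8% of all tested genes) with a median of -0.29. Within those above it 49 passed (63.6%, against 60.1%) with a median of -0.26. The summed ventricular cardiomyocyte markers were 58430 to 74640 CPM in Ctrl (median 66330) and 30120 to 76440 CPM in Doxo hearts (median 55350), with all 8 markers detected. Of these markers 5 were lower, among them *Actc1* (log2 fold change -1.26, adjusted p = 4.31e-05) and *Myh6* (-0.69, adjusted p = 0.000875), 2 were higher, *Tnnt2* by 0.76 (adjusted p = 2.83e-08) and *Pln* by 0.34 (adjusted p = 0.000775), and *Ryr2* did not pass. Markers of other cells also differed, with 3 of 3 tested neutrophil markers higher, 3 of 5 fibroblast markers lower and 1 higher, 2 of 5 macrophage markers lower and 1 higher, 1 of 5 endothelial markers lower and 1 higher, and 5 of 5 red blood cell markers lower. The part of these markers in the result was not tested.

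**Figure D2:**
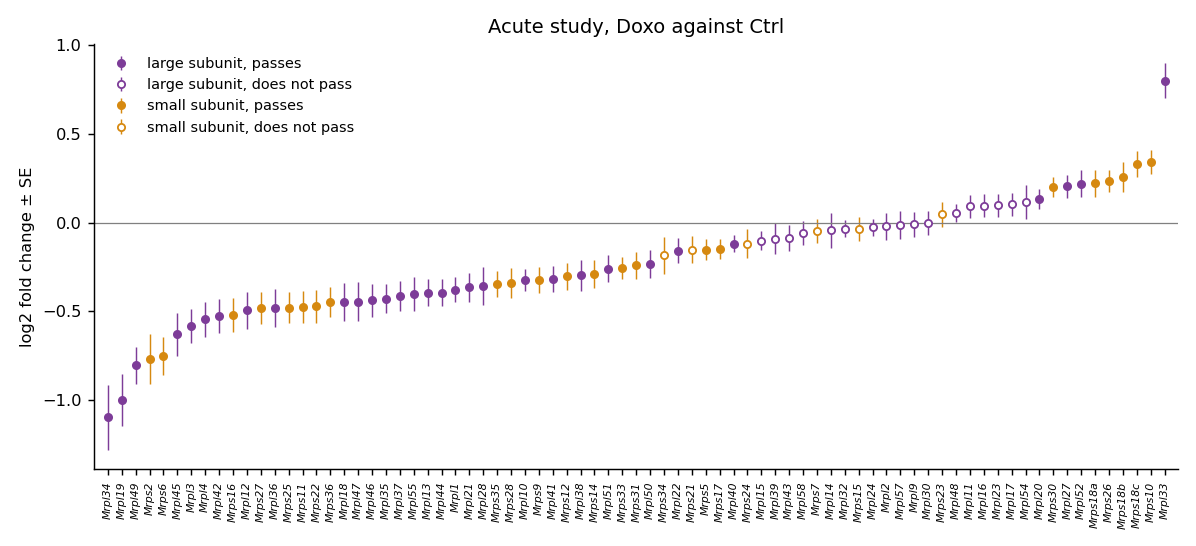
Log2 fold change of Doxo vs. Ctrl in the acute study (vertical axis) for each of the 77 tested members, ordered by size. Points show the estimate, bars the standard error, filled points the members with an adjusted p-value under 0.05 and colours the subunit; 44 members lie significantly below 0 and 10 above it, from -1.10 for Mrpl34 to 0.80 for Mrpl33.

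Both subunits took part. Of the large subunit members 27 were lower and 4 higher of 48 tested, with a median log2 fold change of -0.25, and of the small subunit members 17 were lower and 6 higher of 29, with a median of -0.24. The proteins of *Mrps18a* and *Mrps30* sit in the large subunit in spite of their symbols. With these counted as large, the large subunit had 27 lower and 6 higher of 50 (median -0.20) and the small subunit 17 lower and 4 higher of 27 (median -0.26), so which subunit had the lower median depended on this assignment. Within a heart, the mean log2 CPM of the large subunit members exceeded that of the small subunit members by 0.321 ± 0.020 (SD, n = 14) in the Ctrl group. The excess was 0.281 ± 0.032 (n = 13) with Doxo and 0.330 ± 0.017 (n = 13) with Doxo and NMN. These values take the subunits by symbol, with *Mrps18a* and *Mrps30* as small. The excess was not computed with these counted as large, so whether it differs between groups under that assignment was not tested. The 46 tested members with a bacterial counterpart (26 lower, 5 higher, median -0.22) and the 31 without one (18 lower, 5 higher, median -0.24) had like counts. Of the related genes *Mrps18a*, *Mrps18b* and *Mrps18c*, only *Mrps18c* was listed as having a counterpart. *Mrps18a* and *Mrps18b* are among the 5 higher members without one, so the split of the higher members depends on this choice.

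*Mrpl49*, which encodes a large subunit protein without a bacterial counterpart, had the smallest adjusted p of the members that fell. Its level was 23.8 to 36.7 CPM in Ctrl hearts (median 30.8) and 12.3 to 33.2 CPM in Doxo hearts (median 15.6). Only Doxo replicate 6, at 33.2 CPM, lay within the Ctrl range. The log2 fold change was -0.80 (standard error 0.105, adjusted p = 2.81e-08). The largest decrease was that of *Mrpl34*, which encodes one of the smallest proteins of the large subunit, from 31.0 to 54.8 CPM (median 40.9) in Ctrl to 10.5 to 48.2 CPM (median 13.2) in Doxo hearts. Doxo replicates 6 and 7, at 48.2 and 37.4 CPM, overlapped with Ctrl hearts, and the other 11 lay below every Ctrl heart. *Mrpl34* changed by -1.10 on the log2 scale (standard error 0.182, adjusted p = 2.17e-06).

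The counterpart of a bacterial protein at the interface of the subunits, *Mrpl19*, went from 21.8 to 31.8 CPM (median 28.2) in Ctrl to 8.19 to 29.3 CPM (median 12.2) in Doxo hearts. Apart from Doxo replicate 6, every Doxo heart lay below the lowest Ctrl heart. Its log2 fold change was -0.998 (standard error 0.147, adjusted p = 2.61e-07). *Mrpl3* and *Mrpl4* encode conserved core proteins of the large subunit. *Mrpl3* stood at 74.6 to 101 CPM (median 89.5) in Ctrl and 45.8 to 104 CPM (median 52.7) in Doxo hearts, where replicate 6 was above all Ctrl hearts and the other 12 were below all of them, and changed by -0.58 on the log2 scale (adjusted p = 1.87e-06). *Mrpl4* was at 58.3 to 80.2 CPM in Ctrl and 33.5 to 73.0 CPM in Doxo hearts, of which only replicate 6 lay within the Ctrl range (log2 fold change -0.54, adjusted p = 7.99e-06).

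In the small subunit, *Mrps6* had the smallest adjusted p. It lay between 10.01 and 16.1 CPM (median 13.8) in Ctrl and between 5.53 and 11.6 CPM (median 7.44) in Doxo hearts, with only Doxo replicate 6 within the Ctrl range, and changed by -0.75 on the log2 scale (standard error 0.106, adjusted p = 1.29e-07). *Mrps2*, which has a bacterial counterpart, was at 22.6 to 35.6 CPM in Ctrl and 9.83 to 35.6 CPM in Doxo hearts (medians 29.8 and 15.7, log2 fold change -0.77, adjusted p = 8.13e-06), and Doxo replicates 2, 6 and 7 were the only ones not below the Ctrl hearts. *Mrps25* and *Mrps16* decreased less, by log2 fold changes of -0.48 and -0.52 (adjusted p = 7.05e-06 and 8.12e-06), and *Mrps27*, a pentatricopeptide repeat protein, by -0.48 (adjusted p = 1.33e-05). The study named *Mrpl49* from these acute hearts, and from the chronic hearts *Mrps2*, *Mrps25* and a further 7 members, *Mrpl18*, *Mrpl21*, *Mrpl28*, *Mrpl36*, *Mrpl41*, *Mrpl46* and *Mrpl51*. These 7 were lower after acute Doxo as well, with log2 fold changes from -0.48 for *Mrpl36* to -0.26 for *Mrpl51*. Without Doxo replicate 6, all 26 members named by rule in this comparison kept their direction and passed, with log2 fold changes of -0.91 for *Mrpl49*, -1.28 for *Mrpl34*, -1.14 for *Mrpl19*, -0.67 for *Mrpl3*, -0.82 for *Mrps6* and 0.84 for *Mrpl33*, the member with the largest rise.

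A group of 10 members was higher instead. *Mrpl33*, the counterpart of a small bacterial large subunit protein, had the smallest p-value of all members. Its level was 16.2 to 20.9 CPM (median 18) in Ctrl hearts and 19.8 to 51.1 CPM (median 28.1) in Doxo hearts. The lowest Doxo heart, replicate 6 at 19.8 CPM, was the only one within the Ctrl range. The log2 fold change was 0.80 (standard error 0.099, adjusted p = 1.07e-08), and it was the only member higher by at least 1.5-fold. The annotated gene model of *Mrpl33* is long for a small protein (7326 exon bases in 13 blocks), and which of these exons carried the reads was not analysed here.

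The other 9 rose by smaller amounts, with log2 fold changes from 0.13 to 0.34. *Mrps10* was at 14.98 to 19.6 CPM in Ctrl and 17.3 to 25.9 CPM in Doxo hearts, where 9 of 13 Doxo hearts lay above all Ctrl hearts (log2 fold change 0.34, adjusted p = 2.4e-05). The family of 3 related genes *Mrps18a*, *Mrps18b* and *Mrps18c* rose as a whole, by 0.22, 0.26 and 0.33 on the log2 scale (adjusted p = 0.00951, 0.00671 and 0.000121). *Mrps18c* was at 6.38 to 9.06 CPM in Ctrl and 8.36 to 13.4 CPM in Doxo hearts, and 8 of 13 Doxo hearts lay above all Ctrl hearts. *Mrps26* and *Mrps30* rose by 0.24 and 0.20 (adjusted p = 0.00115 and 0.00224), and *Mrpl27*, whose bacterial counterpart reaches the peptidyl transferase centre, by 0.20 (adjusted p = 0.0064). For *Mrpl52* (0.22, adjusted p = 0.0121) and *Mrpl20* (0.13, adjusted p = 0.0374) the rise was lost in some subsets. *Mrpl20* did not pass on either side of the *Myl4* limit (adjusted p = 0.561 below and 0.0864 above it), and *Mrpl52* was at -0.028 above it. The log2 fold change of *Mrps6*, which fell, was -0.41 below the limit and -1.04 above it (adjusted p = 0.0163 and 1.02e-06). Of the other members that rose, *Mrps18a*, *Mrps18b* and *Mrps30* did not pass in hearts below 100 CPM of *Myl4* (adjusted p = 0.208, 0.0822 and 0.0635), and *Mrpl27*, *Mrps18b* and *Mrps30* did not in hearts above it (adjusted p = 0.15, 0.0659 and 0.0753).

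**Figure D3:**
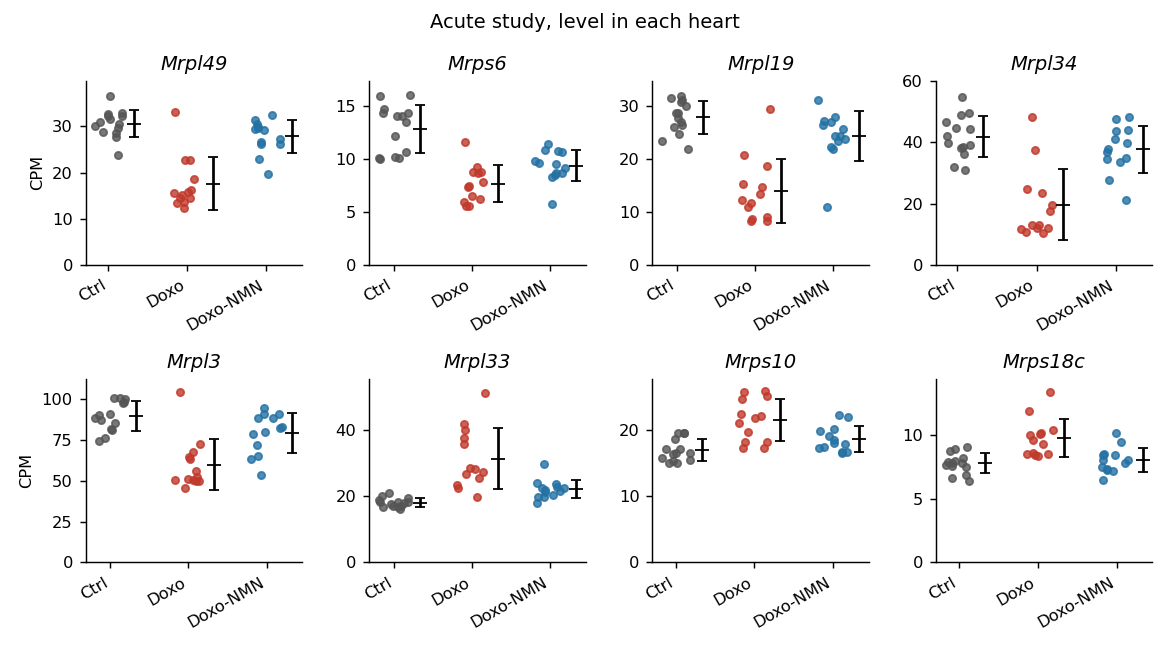
Level in CPM (vertical axes, from 0) of 5 members that fell and 3 that rose in acute Doxo vs. Ctrl hearts, by group. Each point is 1 heart and bars give the mean and SD; for Mrpl49, Mrpl19, Mrpl3 and Mrps6 a single Doxo heart, replicate 6, reaches the Ctrl range, and Mrpl33 shows the opposite direction.

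A total of 23 tested members did not pass in acute Doxo vs. Ctrl, with log2 fold changes from -0.18 for *Mrps34* to 0.11 for *Mrpl54*. *Mrpl53* was not tested, since it had no count in any of the 57 hearts. In the annotation 88% of its exon bases are shared with the gene model *Gm42688* on the same strand, and the part of this overlap in the counts was not tested.

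NMN was compared with Doxo alone next. In Doxo-NMN vs. Doxo hearts of the acute study, 39 of 77 members were higher and 5 lower, where 25.7% of all tested genes were higher and 27.4% lower (53% in either direction). The median log2 fold change was 0.20 for the members and -0.00083 for all tested genes. With a fold change of at least 1.5 as well, 4 members were higher and none lower (8.17% and 8.88% of all tested genes, 17.1% in either direction). Of the large subunit 27 were higher and 2 lower (median 0.24), and of the small subunit 12 and 3 (median 0.17). Without Doxo replicate 6, 50 members passed (64.9%, against 58.1% of all tested genes) with a median of 0.24. Within the hearts below 100 CPM of *Myl4* 33 members passed (42.9%, against 39.1% of all tested genes) with a median of 0.19, and above it 34 (44.2%, against 39.3%) with a median of 0.19. The summed ventricular cardiomyocyte markers were 37960 to 84030 CPM with NMN (median 72580, against 55350 in Doxo hearts), and 5 of the 8 markers were higher, among them *Actc1* by 0.92 and *Myh6* by 0.82 on the log2 scale, while *Tnnt2* (-0.34) and *Pln* (-0.23) were lower. In the same comparison 3 of 3 neutrophil, 5 of 5 red blood cell and 2 of 5 endothelial markers were lower. Of 5 macrophage markers 2 were higher, and of 5 fibroblast markers 3 were higher and 2 lower. The part of these markers in the values of the members was not tested. The comparison shares the Doxo hearts with Doxo vs. Ctrl, so the 2 sets of values are not independent.

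The members with the largest differences were the 4 past 1.5-fold. *Mrpl34* was at 21.1 to 48.3 CPM (median 37.7) with NMN, a log2 fold change of 0.95 vs. Doxo (standard error 0.184, adjusted p = 6.89e-05). *Mrpl19* was at 10.99 to 31.1 CPM (median 24.4), with 0.80 (adjusted p = 3.83e-05), and only Doxo-NMN replicates 2 and 10 lay below the Ctrl hearts. For *Mrpl49* the level was 19.7 to 32.5 CPM (median 29.1), with 0.66 (adjusted p = 5.73e-06). *Mrps2* stood at 16.9 to 32.5 CPM, with 0.61 (adjusted p = 0.000493). Their medians with NMN lay within the Ctrl range. Without Doxo replicate 6 the log2 fold changes were 1.14 for *Mrpl34*, 0.94 for *Mrpl19* and 0.78 for *Mrpl49*. *Mrps27* and *Mrps25* were higher by 0.47 and 0.43 (adjusted p = 7.01e-05 and 0.000117). The 5 that were lower with NMN than with Doxo alone were *Mrpl33* (-0.50, adjusted p = 9.76e-05), *Mrps18c* (-0.28, adjusted p = 0.00144), *Mrps30* (-0.23, adjusted p = 0.00139), *Mrps10* (-0.20, adjusted p = 0.0104) and *Mrpl27* (-0.17, adjusted p = 0.0296). Of these 5, *Mrps10* (adjusted p = 0.0546 below and 0.0701 above) and *Mrpl27* (0.179 and 0.0523) passed on neither side of the *Myl4* limit. *Mrps30* passed below it but not above it (adjusted p = 0.00958 and 0.069), and *Mrpl33* was at -0.61 and -0.30. *Mrpl33* was at 17.95 to 29.6 CPM with NMN (median 21.99), and 9 of 13 of these hearts lay above all Ctrl hearts.

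Against Ctrl, 3 members were higher and 1 was lower in Doxo-NMN hearts of 77 tested (15% and 11.1% of all tested genes, 26% in either direction), and the median log2 fold change was -0.0089. *Mrps6* was lower, at 5.769 to 11.4 CPM (median 9.57), with a log2 fold change of -0.46 (adjusted p = 0.00137). *Mrps26* was higher by 0.36 (adjusted p = 6.59e-05), *Mrpl33* by 0.30 (adjusted p = 0.0233) and *Mrps18a* by 0.22 (adjusted p = 0.0301). None of the 4 reached 1.5-fold, which 3.79% of all tested genes did as lower and 3.31% as higher (7.11% in either direction). None of the 4 passed on both sides of the *Myl4* limit, where 2 members passed below it (2.6%, against 7.88% of all tested genes) and 1 above it (1.3%, against 9.12%). *Mrps6* was at -0.24 below the limit and -0.51 above it (adjusted p = 0.258 and 0.0118), and *Mrps26* at 0.38 and 0.22 (adjusted p = 0.0108 and 0.14). *Mrpl33* (adjusted p = 0.212 and 0.0543) and *Mrps18a* (adjusted p = 0.345 and 0.29) passed on neither side. A member that did not pass here is not thereby shown to be at the Ctrl level.

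In the chronic study, no member passed in any comparison. The background was as low, with 0.0602% of 14960 tested genes passing in Doxo vs. Ctrl (0.00668% lower and 0.0535% higher), 0% for NMN against Doxo alone and 0.0401%, all higher, for NMN against Ctrl. In edgeR, in the same order, 1, 2 and 0 members had an unadjusted p-value under 0.05, and DESeq2 and limma's voom also called no member. The medians over the members were -0.060, 0.066 and 0.0058 on the log2 scale. The mean log2 CPM per heart over the members was 5.27 to 5.51 in Ctrl, 5.22 to 5.40 in Doxo and 5.28 to 5.54 in Doxo-NMN hearts, and the ranges overlapped.

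*Mrpl28* had the smallest p-value in chronic Doxo vs. Ctrl. Its level was 84.0 to 122 CPM (median 115) in the 5 Ctrl and 70.8 to 99.3 CPM (median 94.9) in the 6 Doxo hearts, with overlapping ranges (log2 fold change -0.26, standard error 0.111, adjusted p = 0.613). *Mrpl3* and *Mrpl51* followed with -0.21 and -0.14 (adjusted p = 0.648 and 0.667). For NMN against Doxo alone these were *Mrpl37*, at 64.9 to 83.2 CPM without and 74.9 to 107 CPM with NMN (a log2 difference of 0.23, adjusted p = 0.999), *Mrps36* (0.31) and *Mrpl14* (0.22). The protein of *Mrps36* has since been assigned to the 2-oxoglutarate dehydrogenase complex and not to the ribosome. In Doxo-NMN vs. Ctrl they were *Mrps18b*, *Mrps26* and *Mrpl15*, with 0.18, 0.18 and 0.13 (adjusted p = 0.999 for each). The 9 members that the study named from these chronic hearts lay between -0.26 for *Mrpl28* and -0.12 for *Mrps25* in Doxo vs. Ctrl (adjusted p = 0.613 to 0.748). With NMN they stood at 0.046 for *Mrpl51* to 0.14 for *Mrps2* against Doxo alone (adjusted p = 0.999 for each). Since they were picked on these hearts, their shared sign is no independent evidence. *Mrpl49*, with the smallest adjusted p among the decreases in the acute study, stood at 27.8 to 40.2 CPM in chronic Ctrl, 30.9 to 38.3 CPM in Doxo and 29.9 to 40.9 CPM in Doxo-NMN hearts, and all 3 groups overlapped.

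**Figure D4:**
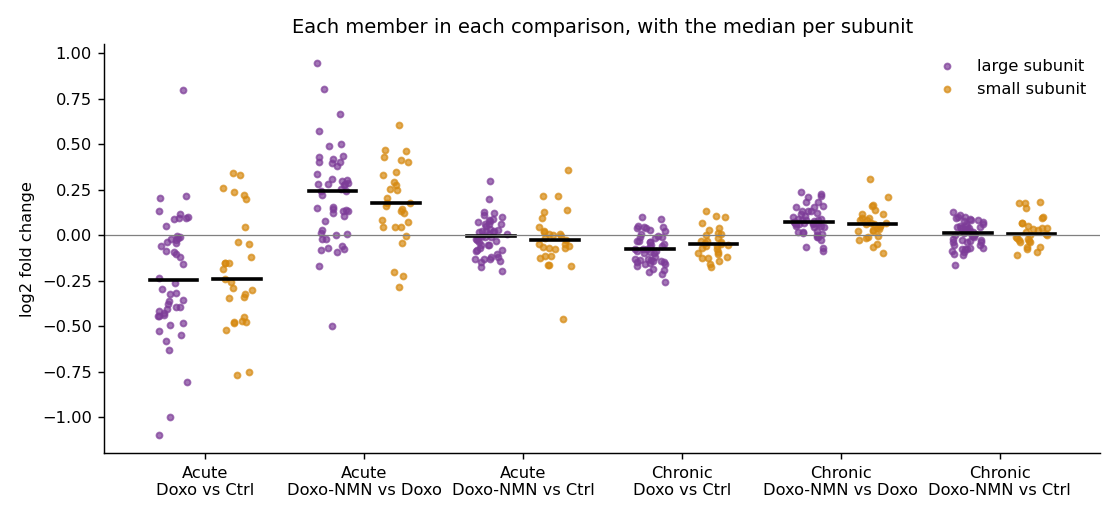
Log2 fold change (vertical axis) of each tested member in the 6 comparisons, with large and small subunit members side by side. Each point is 1 gene and the black line is the median of the subunit; the medians are -0.25 and -0.24 in acute Doxo vs. Ctrl and lie near 0 in the acute comparison of Doxo-NMN with Ctrl, and the chronic values spread less.

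Whether the effect of Doxo differed between the 2 regimens was tested as an interaction on all Ctrl and Doxo hearts together. The studies were sequenced in different laboratories and differed in age, dose schedule and time, so these cannot be told apart. Hearts with *Myl4* above 100 CPM were present in the acute study only, which cannot be told apart from the other differences either. Of 77 members 8 had a lower and 1 a higher log2 fold change in the acute than in the chronic study, against 8.33% and 11% of 14965 genes tested (19.3% in either direction). The difference was -0.72 for *Mrpl49* (standard error 0.196, adjusted p = 0.0126), 0.71 for *Mrpl33* (adjusted p = 0.0133), -0.51 for *Mrps11* (adjusted p = 0.0214), -0.90 for *Mrpl19* (adjusted p = 0.0219) and -0.67 for *Mrps6* (adjusted p = 0.0242). Without acute Doxo replicate 6 these were -0.83, 0.75, -0.57, -1.04 and -0.74. In the fits that leave out 1 heart, *Mrps6* lost the threshold once (adjusted p = 0.0521). The count changed with single hearts, and so did that over all genes. Without acute Doxo replicate 6, 23 members passed (29.9%, against 30.8% of all tested genes), 14 passed without acute Doxo replicate 7 (18.2% against 25.1%), and 17 passed without chronic Doxo replicate 2 (22.1% against 26.5%). It was 5 (6.49%) without acute Ctrl replicate 5, acute Doxo replicate 10, chronic Ctrl replicates 4 or 5 or chronic Doxo replicate 6, and 4 (5.19%) without chronic Ctrl replicate 3, where 13.7% to 19.1% of all tested genes passed.

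Other genes of mitochondrial gene expression were read alongside, each list by its counts in acute Doxo vs. Ctrl, where 33.3% of all tested genes were lower and 34.8% higher, and in Doxo-NMN vs. Doxo, where 27.4% were lower and 25.7% higher. The translation factors guide the ribosome through initiation, elongation and release, and 9 of 15 (60%) were lower and none higher (median -0.34). The release factor *Mtrf1l* went from 9.45 to 14.1 CPM in Ctrl to 4.05 to 11.9 CPM in Doxo hearts, with overlapping ranges (log2 fold change -0.93, adjusted p = 3.65e-08), and *Mrrf*, which recycles the ribosome, changed by -0.49 (adjusted p = 7.12e-07). *Tufm*, the elongation factor that brings aminoacyl-tRNA, named after its values were seen, changed by -0.79 (adjusted p = 1.74e-06). With NMN, 12 of the 15 were higher than with Doxo alone and none lower (median 0.33). Of the genes for assembly of the ribosome and modification of its RNA 15 were lower and 4 higher of 28 (53.6% and 14.3%, median -0.19), and with NMN 16 were higher than with Doxo alone and 3 lower (median 0.21). *Noa1*, a GTPase of mitochondrial ribosome assembly, changed by -0.75 (adjusted p = 1.28e-08), and *Malsu1*, an assembly factor of the large subunit, by 0.62 (adjusted p = 1.06e-07). Of 5 ribosomal proteins with other symbols *Ptcd3* (-0.56) and *Gadd45gip1* (-0.36) were lower (40%) and none was higher (median -0.029), and with NMN 2 were higher than with Doxo alone and none lower (median 0.096). For mitochondrial transcription 5 were lower and 1 higher of 7 (71.4% and 14.3%, median -0.33), among them *Tfam*, which packages mitochondrial DNA (-0.43, adjusted p = 2.03e-06), and *Mterf2* (-1.05, adjusted p = 5.19e-06). With NMN 5 of the 7 were higher than with Doxo alone and 1 lower (median 0.33).

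The transcripts that this machinery serves did not follow the same counts. Of the 13 protein genes of mitochondrial DNA none was lower and 2 were higher after acute Doxo (15.4% in either direction, against 68.1% of all tested genes, median 0.012), *mt-Nd6* by 0.39 (adjusted p = 0.00023) and *mt-Atp6* by 0.26 (adjusted p = 0.0181), and with NMN 5 were lower than with Doxo alone and none higher (median -0.20). The ribosomal RNA of the small subunit, *mt-Rnr1*, was at 3415 to 6742 CPM in Ctrl and 1830 to 5227 CPM in Doxo hearts (log2 fold change -0.54, adjusted p = 0.000567), and *mt-Rnr2* of the large subunit changed by -0.13 (adjusted p = 0.244). The libraries were selected for poly(A), and RNA of mitochondrial DNA mostly carries only short tails. No gene of these lists passed in the chronic study. The genes for proteins of the cytosolic ribosome went the other way from the mitochondrial ones, with 79 of 87 higher and 3 lower (90.8% and 3.45%, median 0.45), and with NMN 67 were lower than with Doxo alone and 1 higher (median -0.26). Cytosolic ribosomal protein genes have many near-identical copies, so how their reads were divided is uncertain.

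**Figure D5:**
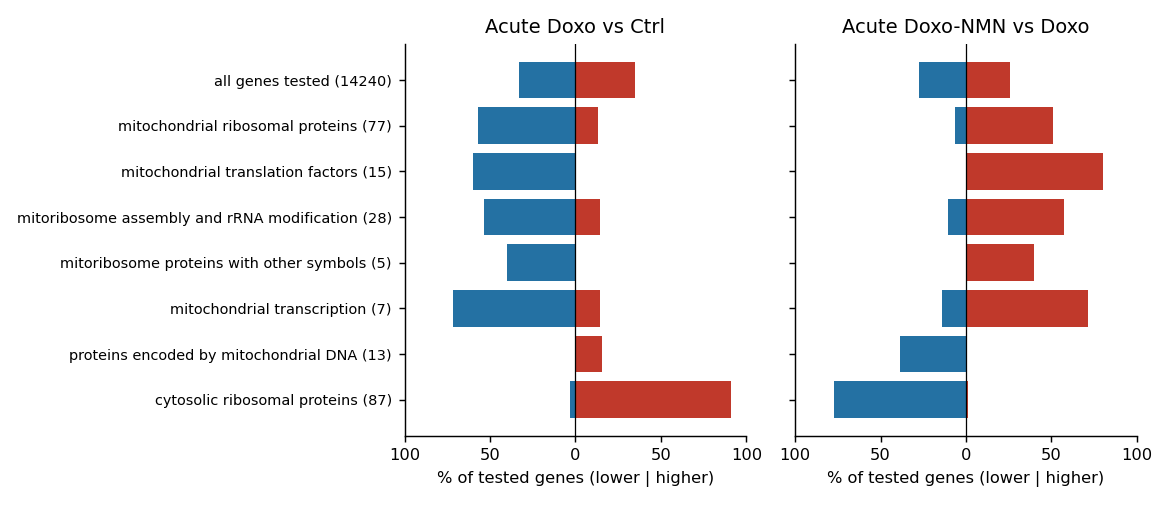
Share of tested genes (horizontal axis, percent) that were lower (blue, to the left) or higher (red, to the right) at an adjusted p-value under 0.05 in 2 acute comparisons, for all genes and for 7 gene lists with the number tested in Doxo vs. Ctrl in parentheses. After Doxo, 57.1% of mitochondrial ribosomal protein genes were lower, and 79 of 87 cytosolic ribosomal protein genes were higher.

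The members lie on 17 chromosomes (GENCODE M21 annotation of GRCm38). Examples are *Mrpl49* at chr19:6053622-6057785 on the minus strand, *Mrpl34* at chr8:71464959-71465747 on the plus strand, *Mrpl33* at chr5:31596935-31664384 on the plus strand and *Mrps6* at chr16:92058270-92112227 on the plus strand. Head-to-head neighbours were taken as protein-coding genes on the other strand that start within 1000 bases, with no overlap of the starts. Such a neighbour was found for 18 members (23.1%), against 6.77% of 22028 protein-coding genes. Pairs that overlap at their starts, such as *Mrpl46* and *Mrps11*, were left out by this rule. In 9 of the 17 pairs with both genes tested both passed in acute Doxo vs. Ctrl. The 68.1% of all tested genes that passed there is a share of single genes, so it is no background for pairs. Of these 9 pairs 6 moved in the same and 3 in opposite directions, and other gene pairs were not compared. *Mrpl49* (-0.80) and the cytosolic ribosomal protein gene *Fau* (0.54, adjusted p = 2.14e-07) start 59 bases apart and moved in opposite directions. *Mrps27* (-0.48) and *Ptcd2* (-0.66), 81 bases apart, both fell. Exon bases are shared with another gene in 33 members, including *Mrpl46* and *Mrps11* with each other (173 bases). The share is 69.8% in *Mrps25* and 36% in *Mrpl19*, both with a gene on the other strand, and 30.5% in *Mrps18b* with *Gm16279*, also on the other strand. Other partners lie on the same strand, where a strand setting would not separate them, *Slc5a3* (10.4%) and *Gm49711* (19.9%) for *Mrps6* and *Gm43511* (23.2%) for *Mrps18c*. The strand setting of the counting is not given in the sources used here, and without it the reads of partners on opposite strands cannot be told apart.

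Levels were compared between genes only per length. Divided by the median length of a gene's protein-coding transcripts, *Mrpl42* was highest in acute Ctrl hearts with 298 ± 32.4 CPM per kb (SD, n = 14), ahead of *Mrps23* with 180 ± 21.9 CPM per kb and *Mrpl30* with 170 ± 17.7 CPM per kb, and these last 2 differed by less than their spread. *Mrps25* was lowest of the detected members with 4.54 ± 0.506 CPM per kb. In chronic Ctrl hearts *Mrpl42* and *Mrps23* were again the highest, and *Mrps30* was the lowest detected with 4.11 ± 0.612 CPM per kb (n = 5). Divided by all annotated exon bases of a gene instead, *Mrps21* led in the acute study with 85.5 CPM per kb, ahead of *Mrps23* and *Mrpl34*, and *Mrps30*, *Mrpl33* and *Mrps10* were the lowest detected, so the order depended on the length used.

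Promoters of the members were searched for known motifs because the members moved in part together. RefSeq promoter windows (GRCm38.p6, 250 bases before to 50 after the start) were found for 69 members, with 75 windows. The palindromic NRF1 motif was in 17.3% of these windows and in 4.6% of all 32851, the ETS motif CCGGAAG in 34.7% and 8.86%, the YY1 motif AAGATGGCG in 10.7% and 1.4%, and the TATA box TATAAA in 6.67% and 13.6%, searched on both strands, with overlaps between motifs allowed. The GC box GGGGCGGGG was in 20% and 11.4%. The windows of the members had a median GC content of 58.7%, against 52.7% for all windows, and a median of 21 CpG dinucleotides, against 7, and the part of this composition in the matches was not tested. By direction after acute Doxo, 38 members with a window fell, 10 rose and 20 did not pass. In that order the NRF1 motif was in 4, 1 and 8 of them, the ETS motif in 11, 7 and 7, the YY1 motif in 6, 1 and 1, the GC box in 7, 1 and 5 and the TATA box in 2, 0 and 3. These are matches of letters and not shown to be bound sites. Stretches of 100 bases before the start of 3 members, chosen after their values were seen, show examples of both directions, *Mrpl34* and *Mrpl45* that fell and *Mrps18a* that rose. The stretch of *Mrps18a* ends 18 bases before the RefSeq start and the others end next to it. Capitals mark the NRF1 match in *Mrpl45* and the ETS match in *Mrpl34* and *Mrps18a*.
Mrpl34, chr8:71464826-71464925, plus strand: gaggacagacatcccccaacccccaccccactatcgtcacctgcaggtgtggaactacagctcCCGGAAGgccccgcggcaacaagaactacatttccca
Mrpl45, chr11:97315616-97315715, plus strand: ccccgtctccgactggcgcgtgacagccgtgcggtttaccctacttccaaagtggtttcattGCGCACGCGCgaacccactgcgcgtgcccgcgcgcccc
Mrps18a, chr17:46110886-46110985, plus strand: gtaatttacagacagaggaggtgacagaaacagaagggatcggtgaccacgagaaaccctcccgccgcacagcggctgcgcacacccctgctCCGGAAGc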

How the data were processed

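Poly(A) RNA of 57 hearts was sequenced by the authors, mapped to the mouse genome mm10 with STAR (2.7.3a in the submitters' notes) and counted per gene with featureCounts 2.0.0. The deposited values are the authors' counts, whole numbers per gene without normalization, in 1 table per study. Among low counts (1 to 20) the even ones made up 70.95% to 78.6% per heart for the acute study and 39.02% to 41.9% for the chronic one. The cause of this excess in the acute study was not tested. Acute depth and detection limit are given on the counts as deposited and may look better than they are. Hearts were assigned to groups by their labels, and all were used.

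Genes passing filterByExpr were normalized with TMM and tested with edgeR 4.0.16 (quasi-likelihood F-test, R 4.3.3), the 3 groups of a study in 1 fit, with Benjamini-Hochberg adjustment over all genes tested and an adjusted p-value under 0.05. Members and gene lists were chosen with earlier results of these data known. Named members were, by rule, the 8 with the smallest adjusted p per direction in acute Doxo vs. Ctrl, 5 per direction in the other acute comparisons, 3 in each chronic comparison, 5 in the interaction, the 3 highest and 3 lowest per exon length, up to 10 that passed against the direction of most, and those the study named, and of each other list the 2 with the smallest adjusted p, apart from the cytosolic ribosomal proteins, given by counts. Means per heart use log2 CPM with a prior count of 2 and get no test. Alternatives were DESeq2 1.42.0, limma 3.58.1 with voom, other scalings and filters, fits of 2 groups, acute counts divided by 2, the replicate number as a block, hearts split at 100 CPM of *Myl4* and leaving out each heart. No pair of hearts was a repeated library (lowest chi-square per gene 5.3). The calculations were tested on simulated data. Sequences are from RefSeq. Figures and summaries used Python 3.11.15, pandas 2.3.3 and matplotlib 3.10.9.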

Additional observations from a re-analysis of the deposited data

Results flagged for a closer look

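In the chronic study, 10 of 54 checks flagged 1 heart as apart from the others of its group. A check was 1 named member, or the mean over all members, in 1 group. The checks reuse the same few hearts and are not independent. The chance share of about 1 in 20 holds for a single check, so the count is no measure of an excess. Chronic Doxo replicate 2 was the lowest Doxo heart for *Mrpl18* (35.8 CPM, others 50.8 to 53.4), *Mrpl28* (70.8 CPM, others 91.2 to 99.3), *Mrpl3* (51.3 CPM, others 74.4 to 83.2) and *Mrpl41* (41.5 CPM, others 53.5 to 59.8). Chronic Ctrl replicate 1 was the lowest Ctrl heart for *Mrpl3* (71.9 CPM, others 86.5 to 91.8), *Mrpl37* (67.8 CPM, others 88.5 to 95.0) and *Mrpl49* (27.8 CPM, others 38.01 to 40.2), and Ctrl replicate 2 for *Mrpl21* (34.5 CPM, others 39.7 to 41.5). Chronic Doxo-NMN replicate 6 was the highest of its group for *Mrpl28* (118 CPM, others 84.7 to 96.4) and *Mrps25* (36.4 CPM, others 28.1 to 31.0).

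The effect of Doxo differed between the acute and chronic studies by the interaction test for *Mrpl49* (difference of log2 fold changes -0.72), *Mrpl33* (0.71), *Mrps11* (-0.51), *Mrpl19* (-0.90) and *Mrps6* (-0.67). *Mrps6* lost the threshold in 1 fit that left out a heart (adjusted p = 0.0521). Its acute log2 fold change was -0.41 below and -1.04 above 100 CPM of *Myl4*, and all chronic hearts were below this limit.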

How the results depend on the processing

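Counts and medians of members in acute Doxo vs. Ctrl and Doxo-NMN vs. Doxo stayed within 1.5 times in each alternative except for the fold change of at least 1.5, with 7 and 4 members passing. In acute Doxo-NMN vs. Ctrl, 9 passed with limma's voom, 7 with only the 2 groups, 2 and 1 in hearts under and over 100 CPM of *Myl4*, and 0 with a fold change of at least 1.5. The cause was not tested. Leaving out 1 heart gave 52 to 55, 42 to 50 and 2 to 5 members in the 3 acute comparisons (2 without Doxo-NMN replicate 8), 0 in the chronic ones, and 4 to 23 for the difference between the studies. Reversed signs were seen for *Mrpl52* in acute Doxo vs. Ctrl in hearts over 100 CPM of *Myl4* (-0.028), and in chronic Doxo-NMN vs. Doxo for *Mrpl18* with voom (-0.023) and *Mrps25* without Doxo-NMN replicate 6 (-0.0022, with a range of -0.0022 to 0.0804 over the hearts left out). Single members lost the threshold in 22 results that leave out a heart and in 28 other results. With the replicate number as a block, 53, 43 and 4 members passed in the acute comparisons and 0 in the chronic ones, with medians of -0.26, 0.20 and -0.019. Of the pairs of hearts with the same replicate number, 18 of 39 acute and 4 of 16 chronic ones had a correlation over 0.1. Pairs with different numbers were not compared, so whether the numbers pair the hearts was not tested.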
